A study of Mus musculus with 4 samples.

Results

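JAK2V617F LSK cells were set against TET2KD LSK cells, the 2 single lesions of a study of 4 arrays, 1 array for each genotype. LSK cells are the lineage-negative, Sca-1-positive, Kit-positive cells of the bone marrow, a mix of stem cells and multipotent progenitors. Fetal liver cells taken at E14.5 from JAK2V617F transgenic, TET2KD (TET2 knock-down), double mutant or wild type (WT) mice on the C57B6 background had been transplanted into lethally irradiated recipients, and the LSK cells were sorted from the recipients' marrow. The JAK2V617F array came from 5 mice at 16 weeks after transplantation and the TET2KD array from 5 mice at 10 weeks. The double mutant array came from 5 mice at 13 weeks and the WT array from 5 mice at 16 weeks. Whether the 5 mice were pooled, the promoter of the transgene and the means of the knock-down are not given in the sources used here. With 1 array for each genotype no difference below has a replicate check or a p-value, and genotype, weeks after transplantation and single-array variation cannot be told apart. Of 22620 named genes on the array, 14704 were compared, those with at least 1 probe well above background on the JAK2V617F array, the TET2KD array or both.

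JAK2 is the kinase that carries signals from the receptors for erythropoietin and related cytokines to STAT factors, and V617F is the change that makes it active without cytokine in most human myeloproliferative neoplasms. STAT5 then switches on genes that include its own brakes, the SOCS family. TET2 oxidises methylated cytosine, the first step of removing the mark, and its loss is among the frequent lesions of human myeloid neoplasms, often in the same patients as JAK2V617F.

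Each array carried 59305 non-control spots, of which 54.7% were well above background in JAK2V617F cells, 49.4% in TET2KD cells, 54.1% in the double mutant and 51.5% in WT. Levels are given as scaled signal, the spot intensity divided by the 75th percentile of its own array, and differences as JAK2V617F minus TET2KD on the log2 scale. Where a gene was not well above background on 1 array, that side was set to the higher of its own signal and the dimmest signal well above background, 0.108 in JAK2V617F cells and 0.145 in TET2KD cells, and the fold is written as at least N. A signal 2-fold or more above that of TET2KD cells was found for 2422 genes (16.5%) in JAK2V617F cells, and one 2-fold or more below it for 2197 (14.9%); the median gene differed by 0.0018. These shares are the background for every list below, except that the brightest and the dimmest genes passed 2-fold at other rates, as given at the end of this paragraph. Spots of 1 probe repeated on an array spread by 0.157 in JAK2V617F cells and 0.151 in TET2KD cells (SD, log2), so that a difference carries a spot error of 0.218. That error covers the spotting and scanning, not the mice, the sort or the amplification. Among the genes above background on both arrays, the median difference was -0.34 in the dimmest of 10 equal groups and between 0.05 and 0.10 in the 4 brightest. In the brightest group 5.51% passed 2-fold upward and 1.45% downward. In the next brightest group the shares were 13.0% and 5.80% in that order. In the dimmest group 2.61% passed upward and 13.9% downward, so genes that dim were called lower more often than higher.

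**Figure D1:**
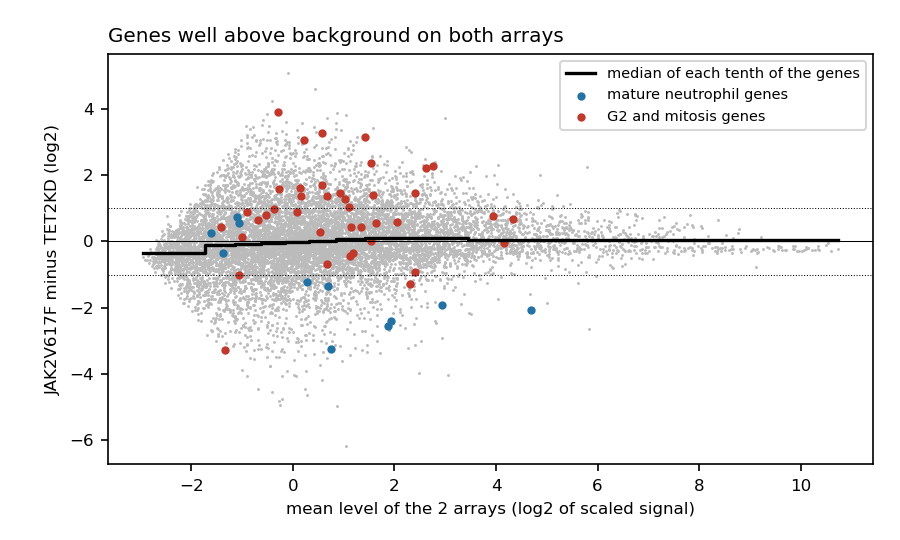
Difference between JAK2V617F and TET2KD cells (vertical, log2 of scaled signal) against the mean level of both arrays (horizontal, log2) for genes well above background on both. Grey points are genes, the black line is the median of each of 10 equal groups, red points are G2 and mitosis genes and blue points mature neutrophil genes; dotted lines mark 2-fold. The red points lie mostly above 0 and the blue points mostly below it, while the black line stays between -0.34 and 0.10.

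Tet2 was lower in the cells labelled TET2KD. On the probe at chr3:133126751-133126810 (mm9) its scaled signal was 4.40 in JAK2V617F cells and 2.35 in TET2KD cells, against 2.57 in the double mutant and 4.17 in WT. On the probe at chr3:133126905-133126964 it was 1.63 in JAK2V617F cells and 0.608 in TET2KD cells, against 1.35 in the double mutant and 2.23 in WT. Both probes put the 2 arrays that carry the knock-down below the 2 that do not. The difference between JAK2V617F and TET2KD cells was 1.87-fold on the first and 2.68-fold on the second, with the remaining probe above background on neither array. Both were still well above background in TET2KD cells.

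Jak2 itself was level across the arrays. Its 1 probe, at chr19:29387487-29387546, read 1.03 in JAK2V617F cells and 1.18 in TET2KD cells, against 1.14 in the double mutant and 1.07 in WT. Whether this probe can read the transgene is not known from the files. Of the 11 genes for JAK kinases and STAT factors none differed by 2-fold, and their median was -0.20. Stat5a, 1 of the 2 STAT5 genes, came nearest at 1.94-fold lower, with 0.924 in JAK2V617F cells and 1.79 in TET2KD cells. Within 1 Mb of Jak2, 2 of the other 11 compared genes passed 2-fold. Rcl1, a ribosomal RNA processing gene, was at least 7.76-fold higher and Insl6, an insulin-like peptide gene, 2.81-fold lower. None of the other 6 genes compared within 1 Mb of Tet2 did.

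The SOCS family genes Socs2, Socs3 and Cish were all more than 4-fold higher in JAK2V617F cells, while other negative regulators of cytokine signalling on the same list, Ptpn6, Ptpn2, Cbl, Cblb, Sh2b3 and Pias1, had log2 differences between -0.17 and 0.43. Socs2 gave the clearest case, because 3 probes within a stretch of under 500 bases on chromosome 10 all read the same way. The probe at chr10:94875187-94875246 read 4.23 in JAK2V617F cells and 0.297 in TET2KD cells, against 2.75 in the double mutant, and was not well above background in WT. That is 14.2-fold, and its neighbours were at least 13.6-fold and at least 9.54-fold higher. One more probe, far away in the genome, was above background on no array. Both arrays that carry JAK2V617F were thus high for Socs2 and the other 2 low.

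Cish and Socs3 did not follow that order across the 4 arrays. Cish, another SOCS-family brake on STAT5, read 2.65 in JAK2V617F cells and 0.600 in TET2KD cells, a 4.42-fold difference, against 0.943 in the double mutant and 2.06 in WT. Socs3, which restrains signalling through gp130 and G-CSF receptors, read 3.66 in JAK2V617F cells and 0.809 in TET2KD cells, 4.52-fold higher, against 3.62 in the double mutant and 3.11 in WT. For both genes TET2KD was the lowest of the 4 arrays and WT lay within 2-fold of JAK2V617F. Osm, the cytokine oncostatin M and a known STAT5 target, was at least 14.9-fold higher, at 2.16 in JAK2V617F cells and not well above background in TET2KD cells, against 0.388 in the double mutant, and was not well above background in WT. Id1, an inhibitor of differentiation factors, was 6.76-fold higher, with 2.26 in JAK2V617F cells and 0.334 in TET2KD cells, against 0.779 in the double mutant and 0.399 in WT. For Osm and Id1, as for Socs2, both arrays with JAK2V617F were above the other 2. Pim1, a survival kinase induced by STAT5, stayed within 2-fold at 5.32 in JAK2V617F cells and 2.94 in TET2KD cells, below the double mutant at 6.54 and WT at 7.01.

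Over the 22 measured members of the STAT5 target and feedback list, 6 reached 2-fold on the higher side and 3 on the lower, and the median was 0.34. Set against the WT array, the list's median was 0.05 for JAK2V617F and -0.27 for TET2KD. The lower members were Ccnd1 (3.69-fold), Ccnd2 (2.22-fold) and Bcl2l1 (2.01-fold), which encode D-type cyclins and the survival factor BCL-XL. Promoters from RefSeq (build GRCm38.p6, from 250 bases before to 50 after a start site) were at hand for 15 of the 22. The STAT motif TTCNNNGAA, searched on both strands, occurred in 3 of them (20.0%), which were Bcl6, Cish and Socs3. Of these, Cish and Socs3 were at least 2-fold higher. The share was 9.55% over all 27025 genes with a promoter and 8.6% over the compared genes with one. It was 9.1% over genes at least 2-fold higher and 8.5% over those at least 2-fold lower. The Socs3 stretch is shown because its match lies wholly upstream of the start, which that of Cish does not. It lies at chr11:117969466-117969565 on the minus strand, with the motif in capitals beginning 154 bases before the start.
Socs3: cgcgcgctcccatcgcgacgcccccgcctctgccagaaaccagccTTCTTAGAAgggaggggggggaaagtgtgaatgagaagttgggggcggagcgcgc
A match is only a run of letters, and none of these data show what binds there.

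**Figure D2:**
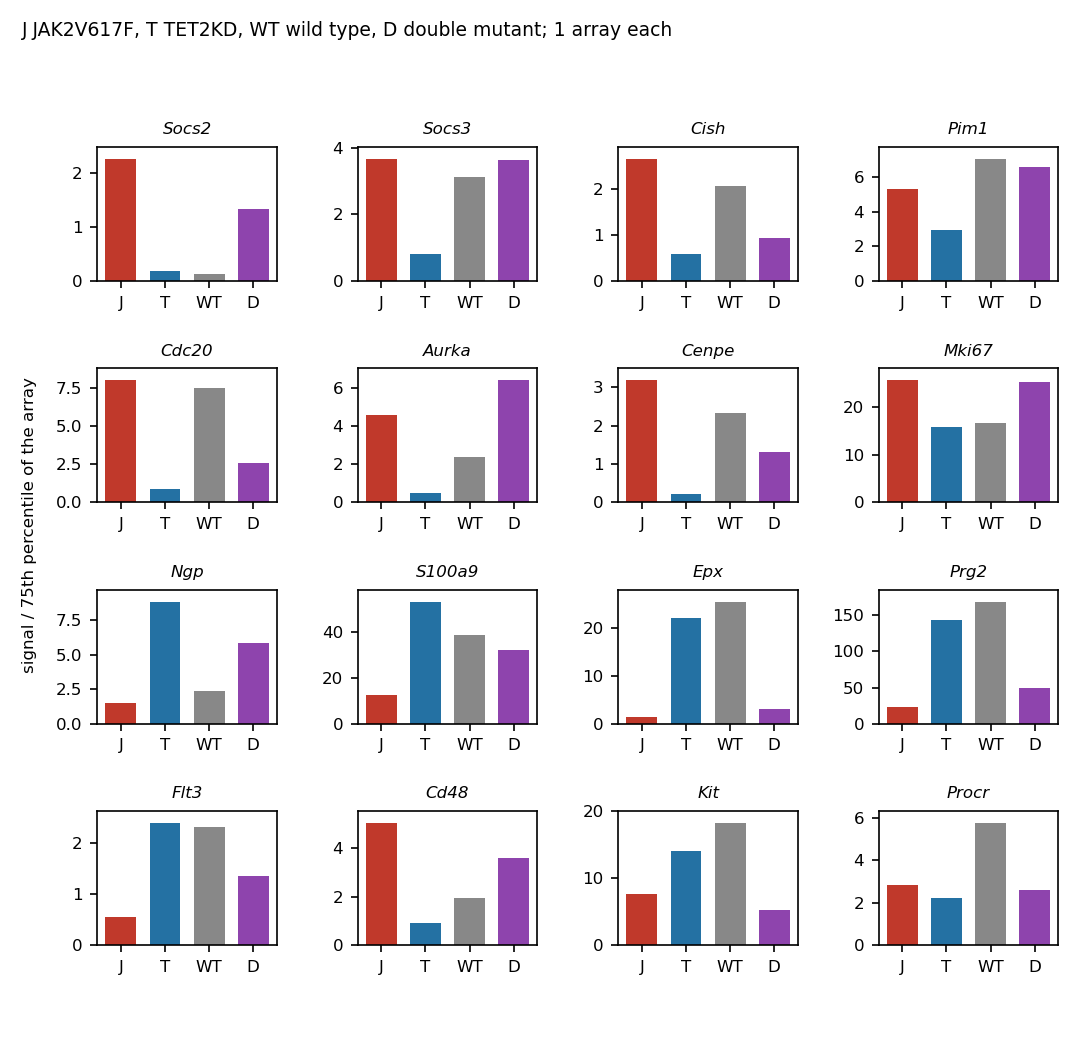
Scaled signal (vertical, intensity divided by the array's 75th percentile, linear from 0) of 16 genes on the JAK2V617F, TET2KD, WT and double mutant arrays, 1 bar per array with no error bar because each genotype has 1 array. Socs2 is high on the 2 arrays with JAK2V617F, Cdc20, Aurka and Cenpe are low in TET2KD cells, Ngp and S100a9 are highest in TET2KD cells, and Epx and Prg2 are low on the 2 arrays with JAK2V617F.

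Cell division genes were more often higher than lower in JAK2V617F cells. Of 50 G2 and mitosis genes, all measured, 22 passed 2-fold upward and 4 downward, and the median difference was 0.85. Cdc20, which activates the anaphase-promoting complex, read 7.97 in JAK2V617F cells and 0.887 in TET2KD cells, against 2.60 in the double mutant and 7.49 in WT. Aurka, the spindle pole kinase, read 4.61 in JAK2V617F cells and 0.481 in TET2KD cells, against 6.41 in the double mutant and 2.40 in WT. Cenpe, a kinetochore motor, read 3.18 in JAK2V617F cells and 0.211 in TET2KD cells, against 1.31 in the double mutant and 2.33 in WT. In all of these the TET2KD array was the lowest of the 4. The differences were 8.99-fold for Cdc20, 9.59-fold for Aurka and 15.1-fold for Cenpe. Birc5, the survivin gene, was 4.61-fold higher as the mean of 3 probes, and the checkpoint kinase gene Bub1 was 8.37-fold higher. Mki67, the common marker of cycling cells, was within 2-fold at 25.6 in JAK2V617F cells and 15.9 in TET2KD cells. The 4 lower members were Cenpf, at least 10.6-fold, Espl1 at 9.65-fold, Spc24 at 2.44-fold and Anln at 2.02-fold, all genes of chromosome segregation or cytokinesis.

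Among 52 measured S phase and replication genes, 13 reached 2-fold on the higher side and 1 on the lower, and the median was 0.50. Rrm2, a subunit of the enzyme that makes deoxynucleotides, read 13.9 in JAK2V617F cells and 2.98 in TET2KD cells, against 8.48 in the double mutant and 4.97 in WT. Gins2, part of the replicative helicase, read 5.15 in JAK2V617F cells and 1.06 in TET2KD cells, 4.88-fold higher. Orc1 and Mcm10, which prepare and fire origins, were 5.21-fold and at least 6.60-fold higher. The single lower member, Pola2 of DNA polymerase alpha, was 5.53-fold lower at 0.344 in JAK2V617F cells and 1.90 in TET2KD cells. The replicative helicase genes Mcm5 and Mcm7 stayed close, at differences of 0.11 and 0.03. Cyclins and G1 regulators were mixed, with 3 of 19 higher (E2f4, E2f2 and Ccne1) and 2 lower (Ccnd1 and Ccnd2). Set against the one WT array that both comparisons share, the median of the mitosis list was 0.62 for JAK2V617F and -0.15 for TET2KD, and that of the S phase list 0.29 and -0.24.

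**Figure D3:**
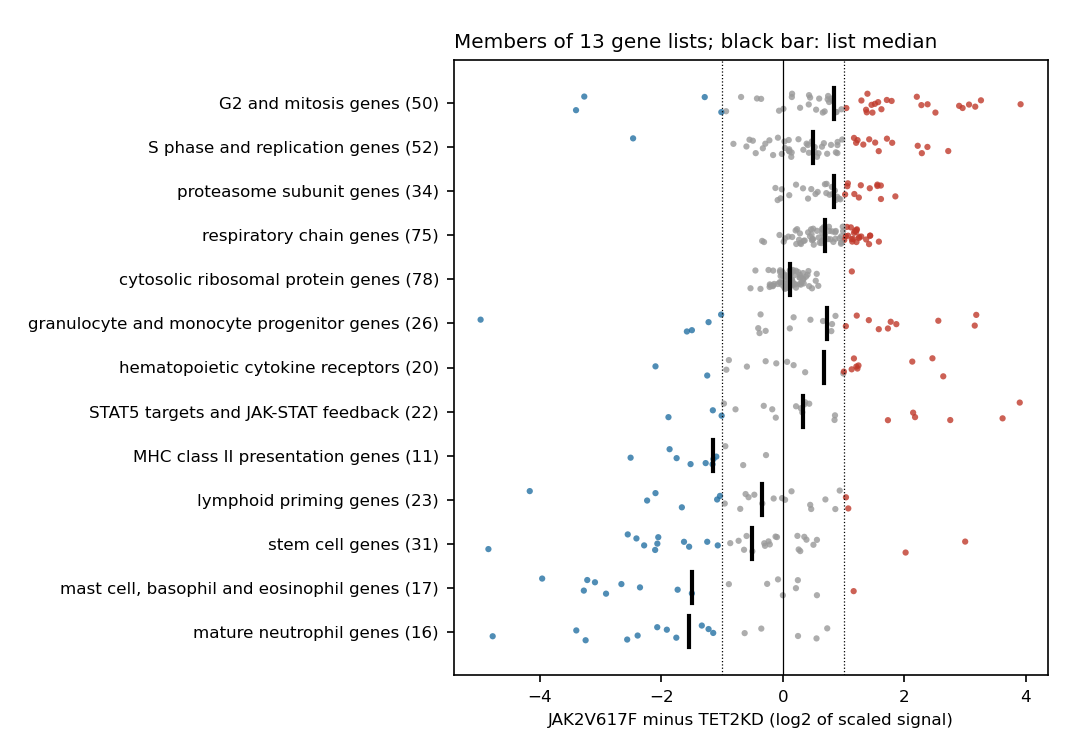
Difference between JAK2V617F and TET2KD cells (horizontal, log2 of scaled signal) for each measured member of 13 gene lists, with the number measured in brackets. Each point is a gene, red at least 2-fold higher, blue at least 2-fold lower, and black bars are list medians, which run from 0.85 for G2 and mitosis genes to -1.54 for mature neutrophil genes.

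Respiratory chain genes were shifted together and by a modest amount. All 75 nuclear-encoded members were measured, 72 of them had a positive difference, 22 were at least 2-fold higher and none was 2-fold lower, with a median of 0.69. The shift was seen in each complex. Complex I, the entry point for NADH, had a median of 0.66 over 36 genes, complex II 0.59 over 4, complex III 0.96 over 9, complex IV 0.66 over 10 and the ATP synthase 0.69 over 15. Ndufb8 of complex I read 31.1 in JAK2V617F cells and 10.4 in TET2KD cells, 2.99-fold higher, against 21.8 in the double mutant and 9.26 in WT. Uqcrq of complex III read 19.8 in JAK2V617F cells and 7.30 in TET2KD cells, against 16.3 in the double mutant and 13.4 in WT. Atp5d of the ATP synthase read 13.1 in JAK2V617F cells and 4.83 in TET2KD cells, against 11.0 in the double mutant and 5.54 in WT. JAK2V617F was the highest of the 4 arrays for these 3 genes. Against the shared WT array the list's median was 0.23 for JAK2V617F and -0.45 for TET2KD.

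Proteasome genes were shifted upward as well. Of 34 members, 12 were at least 2-fold higher, none lower and 30 positive, with a median of 0.84. The alpha subunits of the core ring had a median of 1.03 over 7 genes and the beta subunits, which hold the catalytic sites, 0.83 over 10. The ATPases of the regulatory cap had 0.88 over 6 and its other subunits 0.41 over 11. Psma5 read 11.9 in JAK2V617F cells and 3.28 in TET2KD cells, against 9.60 in the double mutant and 11.7 in WT, where TET2KD was the low array. Psmc3 read 15.2 in JAK2V617F cells and 4.95 in TET2KD cells, against 10.3 in the double mutant and 4.38 in WT, where JAK2V617F and the double mutant were the high ones. In the chaperone list 6 of 33 were higher and 2 lower. Cct4 and Cct8, subunits of the ring that folds actin and tubulin, were 3.91-fold and 3.30-fold higher. Hspa1a, the inducible HSP70, was 5.10-fold lower.

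Cytosolic ribosomal protein genes stayed close together. Of 78 members, 1 was at least 2-fold higher and none lower, with a median of 0.11, and the differences ran from -0.53 to 1.14. The member past 2-fold was Rpl13a (2.20-fold as the mean of 3 probes), whose brightest probe gave -0.0059, so its call rests on the dimmer probes. Their median level was 67.4 in JAK2V617F cells and 61.6 in TET2KD cells. For the respiratory chain list it was 11.0 in JAK2V617F cells and 5.96 in TET2KD cells, and for the proteasome list 11.5 and 5.85 in that order. The ribosomal level lies in the brightest of the 10 level groups. There only 5.51% passed 2-fold upward and 1.45% downward, so most genes that bright stay close as well. The respiratory chain and proteasome levels lie in the next brightest group. The absence of lower genes in these lists stands against its 5.80%, not against 14.9%.

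**Figure D4:**
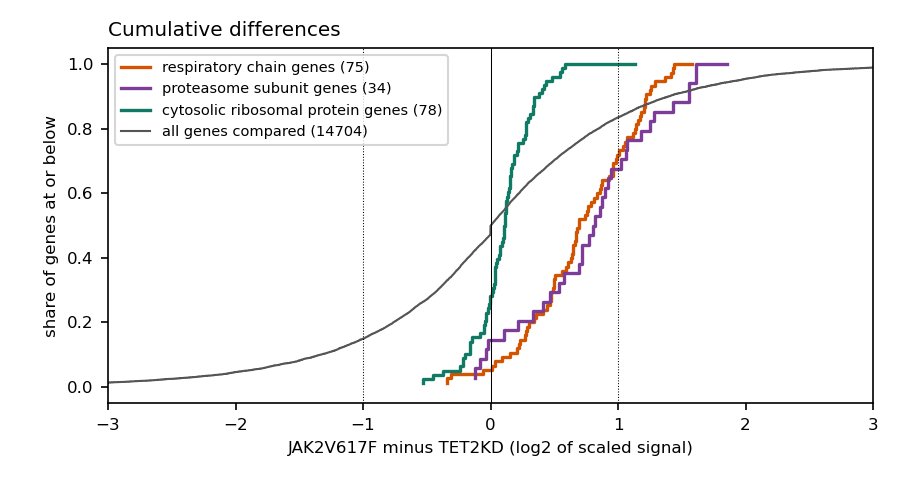
Cumulative share of genes (vertical) at or below each difference between JAK2V617F and TET2KD cells (horizontal, log2 of scaled signal) for 75 respiratory chain, 34 proteasome and 78 cytosolic ribosomal protein genes, with all 14704 compared genes in grey. The first 2 curves lie right of 0 with medians of 0.69 and 0.84, and the ribosomal curve is steep and centred near 0.11.

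The NRF1 factor is known to act at many respiratory chain promoters, and its core motif CGCATGCG, which reads the same on both strands, was searched after the shift had been seen. It occurred in 10 of the 63 respiratory chain genes with a RefSeq promoter (15.9%), against 3.62% of the compared genes with one and 2.07% of all. The following 3 stretches are shown because their genes are at least 2-fold higher and hold the motif wholly upstream of the start. Uqcrc1, 2.39-fold higher, holds it further downstream. They lie at chr6:50566576-50566675 for Cycs (cytochrome c), chr16:84835069-84835168 for Atp5j (ATP synthase stalk) and chr2:36049339-36049438 for Ndufa8 (complex I), all on the minus strand of GRCm38.p6, with the motif in capitals.
Cycs: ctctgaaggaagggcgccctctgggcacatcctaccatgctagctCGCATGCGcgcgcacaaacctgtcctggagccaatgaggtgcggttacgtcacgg
Atp5j: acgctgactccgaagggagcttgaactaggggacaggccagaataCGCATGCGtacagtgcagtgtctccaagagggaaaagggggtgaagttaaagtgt
Ndufa8: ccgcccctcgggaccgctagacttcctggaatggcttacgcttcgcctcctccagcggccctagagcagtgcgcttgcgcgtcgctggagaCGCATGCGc
The differences of these genes were 1.22 for Cycs, 1.17 for Atp5j and 1.13 for Ndufa8. The motif was also present upstream of genes that were not 2-fold higher. These were Ndufa11 (0.27), Atp5g2 (0.45), Atp5l (0.66), Cox6a1 (0.83) and Atp5k (0.99). Whether the motif is more common in the higher members of the list than in the others was not tested.

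Granulocyte and monocyte progenitor genes were split. Of 26 measured, 10 passed 2-fold upward and 5 downward, and the median was 0.73. Cebpa, the transcription factor that commits cells to the granulocyte line, read 14.1 in JAK2V617F cells and 4.72 in TET2KD cells, against 5.66 in the double mutant and 2.15 in WT. Ctsg, a primary granule protease, read 60.2 in JAK2V617F cells and 22.6 in TET2KD cells, against 74.4 in the double mutant and 6.14 in WT. Ms4a3, a marker of granulocyte-monocyte progenitors, read 19.1 in JAK2V617F cells and 5.22 in TET2KD cells, against 16.2 in the double mutant and 6.79 in WT. For these 3 genes the JAK2V617F array exceeded TET2KD, and for Cebpa and Ctsg both single lesions were above WT. Against the shared WT array the list's median was 0.53 for JAK2V617F and 0.85 for TET2KD. Mpo, the myeloperoxidase gene, was within 2-fold at 51.1 in JAK2V617F cells and 29.4 in TET2KD cells, against 14.7 in WT. Elane, neutrophil elastase, was within 2-fold at 7.77 and 10.1 in that order, against 1.62 in WT. On the lower side Irf5, an interferon regulatory factor, was 31.5-fold lower on 1 probe, and Klf4, a monocyte factor, 2.99-fold lower. Spi1, the gene for PU.1, was 2.02-fold lower at 8.87 in JAK2V617F cells and 17.9 in TET2KD cells.

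Genes of mature neutrophils went the other way. Of 16 measured, 11 were at least 2-fold lower in JAK2V617F cells and none higher, with a median of -1.54. Cd177, Il1r2 and Padi4 had positive differences within 2-fold. Ngp, a secondary granule protein, read 1.5 in JAK2V617F cells and 8.86 in TET2KD cells, against 5.84 in the double mutant and 2.40 in WT. S100a9, a subunit of calprotectin, read 12.6 in JAK2V617F cells and 52.9 in TET2KD cells, against 31.9 in the double mutant and 38.5 in WT. Ltf, lactoferrin, was not well above background in JAK2V617F cells and read 2.95 in TET2KD cells, so it was at least 27.4-fold lower. TET2KD was the highest of the 4 arrays for these 3 genes, and JAK2V617F was the lowest. Against the shared WT array the list's median was -0.63 for JAK2V617F and 1.02 for TET2KD. LSK cells are sorted as lineage-negative, and the 7 neutrophil markers used to check the sort summed to 19.9 in JAK2V617F cells, with 5 above background, and to 85.3 in TET2KD cells, with all 7. The sums were 53.3 in the double mutant and 50.1 in WT. S100a8 and S100a9 made up most of the sums in JAK2V617F and TET2KD cells. Ly6g, another of the 7, read 0.340 in JAK2V617F cells and 0.435 in TET2KD cells. A list of 12 genes was drawn up for mature lineage markers, among them Ptprc and Nkg7. Of the 8 measured, none differed by 2-fold, and the median was -0.16. The LSK markers summed to 66.1 in JAK2V617F cells and 60.9 in TET2KD cells, 6 of 7 above background on each and Slamf1 on neither. The part of mature cells in the sorted samples in these differences was not tested, and in a bulk sample fewer cells of a type and less RNA per cell cannot be told apart.

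Eosinophil granule and ribonuclease genes were also lower in JAK2V617F cells, and for Epx and Prg2 WT lay near TET2KD. In the list of mast cell, basophil and eosinophil genes 9 of 17 measured were at least 2-fold lower and 1 higher, with a median of -1.50. Epx, eosinophil peroxidase, read 1.41 in JAK2V617F cells and 22 in TET2KD cells, against 3.0 in the double mutant and 25.4 in WT. Prg2, the major basic protein, read 22.6 in JAK2V617F cells and 143 in TET2KD cells, against 49.0 in the double mutant and 169 in WT. Ear1, Ear2, Ear6 and Ear10, eosinophil ribonucleases so alike that a probe may read more than 1 of them, were 5.11-fold to 9.70-fold lower. For these ribonucleases TET2KD lay below WT, by log2 differences of -1.24, -1.23, -0.94 and -1.03 in that order. Both arrays with JAK2V617F were low for these genes. The 5 mast cell, basophil and eosinophil markers summed to 24.6 in JAK2V617F cells and 166 in TET2KD cells. The sums were 53 in the double mutant and 196 in WT, and Prg2 made up most of each. Mcpt8, a basophil protease, was the higher member, at least 2.24-fold. Il5ra, an IL-5 receptor gene on the same list, was within 2-fold at 0.999 in JAK2V617F cells and 0.842 in TET2KD cells. Against the shared WT array the list's median was -1.88 for JAK2V617F and -0.24 for TET2KD.

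MHC class II presentation genes were lower in JAK2V617F cells. All 11 had a negative difference, 8 of them at least 2-fold, with a median of -1.16. H2-Aa, an MHC class II chain, read 3.29 in JAK2V617F cells and 12 in TET2KD cells, against 9.30 in the double mutant and 7.54 in WT. Cd74, the invariant chain that guides class II molecules, read 8.96 in JAK2V617F cells and 30.1 in TET2KD cells, against 28.8 in the double mutant and 20.0 in WT. Ciita, the factor that switches these genes on, was close at 5.66 in JAK2V617F cells and 6.86 in TET2KD cells. In the macrophage, monocyte and dendritic cell list, which also holds 4 of these genes, 3 of 20 were higher and 8 lower.

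Lymphoid priming genes were lower at 6 of 23 measured and higher at 2, with 15 within 2-fold and a median of -0.34. That median was -0.15 with probes above background on both arrays and -0.61 with the brightest probe. T cell and NK cell genes were higher at 4 of 17 and lower at 2, with a median of 0.16. Flt3, the receptor that marks multipotent progenitors with lymphoid potential, was lower on each of 3 probes, by 2.59-fold, at least 5.11-fold and 5.92-fold. On its brightest probe it read 3.84 in JAK2V617F cells and 9.94 in TET2KD cells, against 8.77 in the double mutant and 11.0 in WT, so JAK2V617F stood lowest. Rag2, a recombinase subunit, was at least 18.0-fold lower, and Cd52, a lymphocyte surface glycoprotein, 4.71-fold lower. In the B cell and plasma cell list 6 of 17 were lower and 1 higher. Jchain, which joins secreted immunoglobulin, read 0.310 in JAK2V617F cells and 4.63 in TET2KD cells, against 3.2 in the double mutant and 0.687 in WT. The 4 plasma cell markers summed to 0.681 in JAK2V617F cells and 8.72 in TET2KD cells, against 4.98 in the double mutant and 0.829 in WT, so the 2 arrays with the knock-down were high. Ms4a1, a defining B cell gene, was above background on neither array, and the part of plasma cells in the list's values was not tested.

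Stem cell genes were lower more often than higher. Of 31 measured, 11 were at least 2-fold lower and 2 higher, with a median of -0.50. Tie1, an endothelial and stem cell receptor, was not well above background in JAK2V617F cells and read 3.1 in TET2KD cells, against 0.887 in the double mutant and 5.36 in WT. Gimap6, a small GTPase gene, read 3.0 in JAK2V617F cells and 15.9 in TET2KD cells, against 5.23 in the double mutant and 15.7 in WT. Txnip, which restrains glucose uptake and binds thioredoxin, read 1.23 in JAK2V617F cells and 5.12 in TET2KD cells, against 0.699 in the double mutant and 7.56 in WT. In these 3 genes TET2KD lay with WT, and JAK2V617F and the double mutant lay below both. Hlf, a stem cell transcription factor, read 7.03 in JAK2V617F cells and 14.8 in TET2KD cells, against 6.55 in the double mutant and 19.8 in WT. Prdm16 and Mn1, other regulators of stem cells, were at least 4.19-fold and at least 4.87-fold lower. The higher members were Nupr1, a stress-induced chromatin protein (8.01-fold), and Ifitm1, an interferon-induced membrane protein (4.06-fold). Against the shared WT array the list's median was -1.02 for JAK2V617F and -0.15 for TET2KD.

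Of the surface proteins that define the gate and its subsets, Kit read 7.61 in JAK2V617F cells and 14.1 in TET2KD cells, and Ly6a, which encodes Sca-1, read 9.99 and 10.695 in that order. Both stayed within 2-fold. Cd48, which is absent from the most primitive cells and present on multipotent progenitors, read 5.05 in JAK2V617F cells and 0.930 in TET2KD cells, against 3.6 in the double mutant and 1.96 in WT. That is 5.42-fold higher as the mean of 2 probes. Procr, a stem cell receptor, was within 2-fold at 2.82 in JAK2V617F cells and 2.21 in TET2KD cells, both below WT at 5.75.

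Among 20 cytokine receptor genes measured, 9 passed 2-fold upward and 2 downward, for a median of 0.68. The median was 0.12 over the 16 genes with probes above background on both arrays, where 6 passed upward and 2 downward, and 0.23 with the brightest probe. Flt3 was among the lower ones. The higher ones included Csf2rb, the shared chain of the IL-3, IL-5 and GM-CSF receptors, with 5.58 in JAK2V617F cells and 2.38 in TET2KD cells, against 3.77 in the double mutant and 2.54 in WT. Its mouse paralogue Csf2rb2, which serves IL-3 alone, was 4.38-fold higher, and since the genes are alike their probes may share signal. Il1r1, the IL-1 receptor, read 4.08 in JAK2V617F cells and 1.72 in TET2KD cells, and Il1rl1, the IL-33 receptor, was at least 5.51-fold higher. Il2rg, the common gamma chain, read 45.5 in JAK2V617F cells and 20.2 in TET2KD cells, 2.25-fold higher.

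Red cell genes were mixed, with 6 of 30 higher and 10 lower and a median of 0.05. With probes above background on both arrays the median was -0.43 over 23 genes. Among the lower genes were Hba-a1, Hba-a2 and Slc4a1, which are also among the greatest differences by the rules used to name genes. Hba-a1, alpha globin, read 0.243 in JAK2V617F cells and 17.5 in TET2KD cells, against 6.25 in the double mutant and 1.16 in WT. Hba-a2, the near-identical second copy, was at least 48.8-fold lower, and the probes of the pair may share signal. Slc4a1, the red cell anion exchanger, read 0.166 in JAK2V617F cells and 4.51 in TET2KD cells, against 3.84 in the double mutant and 0.191 in WT. All 3 were high on the arrays with the knock-down. Hbb-bt, an adult beta globin, went the other way, with 9.81 in JAK2V617F cells and 3.6 in TET2KD cells. Gata1, the master factor of red cells and megakaryocytes, read 1.93 in JAK2V617F cells and 0.176 in TET2KD cells, against 1.70 in the double mutant and 4.54 in WT, so it was the TET2KD array that stood low. The erythroblast markers, which leave out Hba-a1 and Hba-a2, summed to 10.1 in JAK2V617F cells and 8.43 in TET2KD cells. Hbb-bt made up most of the first sum, and Slc4a1 was the greatest part of the second. The close sums thus hold markers that went opposite ways. Of 29 megakaryocyte and platelet genes 4 were higher and 10 lower, with Vwf, the platelet adhesion factor, 3.25-fold lower and Selp, P-selectin, 2.84-fold higher.

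Of 14 genes for TET, DNMT and related enzymes 5 were higher and 1 lower, with a median of 0.63. Apart from Tet2, Dnmt1, the maintenance methyltransferase, read 2.08 in JAK2V617F cells and 0.697 in TET2KD cells, against 2.12 in the double mutant and 0.951 in WT. Dnmt3b, a de novo methyltransferase, read 4.15 in JAK2V617F cells and 1.61 in TET2KD cells, against 2.32 in the double mutant and 4.98 in WT. Tet3 was 2.06-fold higher and Tet1 within 2-fold at 0.728 in JAK2V617F cells and 1.11 in TET2KD cells. In the list of Polycomb and related regulators 5 of 37 were higher and 2 lower, with 30 within 2-fold. Ezh1, a histone methyltransferase of the Polycomb group, was 5.48-fold higher as the mean of 2 probes, and Bcor was 2.34-fold higher but differed by -0.11 with no filter on dim probes.

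Of 22 p53 target genes 6 were higher and 2 lower, with a median of 0.49. Pmaip1, which encodes the death-promoting protein NOXA, read 5.89 in JAK2V617F cells and 0.877 in TET2KD cells, against 4.45 in the double mutant and 0.260 in WT. Aen, an apoptosis nuclease, read 12.7 in JAK2V617F cells and 1.87 in TET2KD cells, and Trp53 itself was 2.25-fold higher. Immediate early genes were lower at the median, -0.41, with 4 of 29 higher, 6 lower and 8 positive. With normexp correction, an offset of 50 and quantile scaling the median was -0.53, with 2 higher and 8 lower. Egr3 was 11.9-fold higher and Nr4a3 4.46-fold higher, while Klf6, Btg1 and Dusp5 were 2.08-fold, 3.49-fold and 3.13-fold lower. Interferon response genes were mixed, with 4 of 34 higher and 7 lower, from Tap1 at 6.0-fold higher to Oas3 at 13.3-fold lower. In the glycolysis and hypoxia list 5 of 28 were higher and 5 lower. Ldha, lactate dehydrogenase, was 2.95-fold higher as the mean of 3 probes. Hif1a, the hypoxia factor, was 5.25-fold lower as the mean of 2 probes but differed by 0.16 on the probe above background on both arrays.

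The arrays also differed in Xist, the RNA that silences one X chromosome in female cells. On its brighter probe Xist read 16.6 in JAK2V617F cells and 3.08 in TET2KD cells, against 0.346 in the double mutant and 47.4 in WT. The Y-linked genes Eif2s3y and Ddx3y were above background on both arrays, with Eif2s3y at 0.132 in JAK2V617F cells and 0.523 in TET2KD cells and Ddx3y at 0.264 and 0.417 in that order. The sex of the donors is not given in the sources used here, and the part of a differing mix of male and female cells in any result was not tested.

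The differences of greatest size by the naming rules were spread over unrelated functions, most on 1 probe. Among genes above background on both arrays Mrpl58, a mitochondrial ribosome release factor, read 5.46 in JAK2V617F cells and 0.159 in TET2KD cells, against 3.32 in the double mutant and 5.08 in WT. Got1, the cytosolic aspartate aminotransferase, read 6.73 in JAK2V617F cells and 0.275 in TET2KD cells, against 2.52 in the double mutant and 0.314 in WT. Uxt, a prefoldin-like protein, read 29.1 in JAK2V617F cells and 2.20 in TET2KD cells over 2 probes, and Fdps, of the sterol pathway, was 12.1-fold higher. In the other direction Aqp3, a water and glycerol channel, was 31.0-fold lower at 0.151 in JAK2V617F cells and 4.69 in TET2KD cells. Gng11, a G protein subunit, read 0.253 in JAK2V617F cells and 5.55 in TET2KD cells, against 2.36 in the double mutant and 8.56 in WT. Dgat1, which makes triglycerides, was above background in JAK2V617F cells but not in TET2KD cells and was at least 51.3-fold higher. Hdac9, a histone deacetylase, was above background in TET2KD cells but not in JAK2V617F cells and was at least 51.0-fold lower.

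How far a difference read on 1 probe was seen on another depended on their distance. Probes of 1 gene lying under 100 bases apart gave differences with a Spearman correlation of 0.76 across 451 genes, whereas probes at least 500 bases apart gave 0.11 across 3224 genes. Of 480 genes with both distant probes past 2-fold, 194 had them in opposite directions. These correlations are across genes, which are not independent replicates, and a fold from 1 probe therefore describes 1 stretch of a transcript. Of 3716 genes with probes at least 100 bases apart, 183 had all of them at least 2-fold higher (4.92%) and 128 all of them lower (3.44%).

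Ranked by the smallest difference among its probes, Coa4, an assembly factor of respiratory complex IV, came first, at least 12.8-fold and at least 16.4-fold higher on its 2 probes, and Socs2 came second. Fastkd3, which acts on mitochondrial RNA, was at least 7.80-fold higher. Slc19a1, the reduced folate carrier, was above background everywhere and read 2.96 in JAK2V617F cells and 0.455 in TET2KD cells, against 1.53 in the double mutant and 2.99 in WT. The lower group was led by Ppp1r9a, a neuronal actin-binding protein, and Nnat, an imprinted membrane protein. Nnat read 0.174 in JAK2V617F cells and 1.52 in TET2KD cells on one probe and was at least 18.5-fold lower on the other. Acvr1b, an activin receptor, read 0.442 in JAK2V617F cells and 3.14 in TET2KD cells, against 0.452 in the double mutant and 0.372 in WT, so TET2KD stood alone. Thra, a thyroid hormone receptor, was 6.36-fold lower and Mrs2, a mitochondrial magnesium channel, 6.68-fold lower.

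With normexp correction, an added offset of 50 and quantile scaling together, fewer genes passed 2-fold, with 6.81% of all genes compared higher and 5.37% lower. The counts of higher genes were then 18 of 50 for G2 and mitosis, 8 of 52 for S phase, 12 of 75 for the respiratory chain and 7 of 34 for the proteasome. The counts of lower genes were 8 of 16 for mature neutrophil genes, 8 of 17 for mast cell, basophil and eosinophil genes, 4 of 11 for MHC class II and 8 of 31 for stem cell genes. The medians of all these lists kept their sign, and they were 0.53 for G2 and mitosis, -0.98 for mature neutrophil genes, -0.95 for mast cell, basophil and eosinophil genes and -0.30 for stem cell genes. They were 0.31 for cytokine receptors, 0.41 for TET, DNMT and related enzymes and 0.24 for p53 targets. An offset shrinks folds by construction, and its share in the smaller counts was not separated from that of the correction.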

How the data were processed

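Total RNA of sorted LSK cells was amplified (Ovation Pico WTA), labelled with Cy3 and hybridised to 1 Agilent array per genotype, per the labels' protocols. The deposited spot intensity is Feature Extraction's background-subtracted, detrended processed signal, per the file headers (version 10.7.3.1, protocol GE1_107_Sep09, probe coordinates mm9). The deposited series table holds the same values as log2 signal minus a constant per array: every column lay within 0.01 of the scanner values after 1 shift per array. Its column medians were -2.60 in JAK2V617F, -2.63 in TET2KD, -2.60 in the double mutant and -2.64 in WT.

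Processed signals of non-control spots were taken to log2 and set relative to each array's 75th percentile. Outlier spots were left out, and spots of a probe and probes of a gene were averaged. Genes were named through RefSeq accessions and symbols. A gene counted as different at 2-fold. There is 1 array per group, so no test was run and the number of arrays limits the precision; the gene comparison was tested on simulated data. The members and the gene lists were chosen with earlier results of these data known.

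Genes were named as follows: Tet2 and Jak2; the 15 greatest differences each way above background on both arrays; the 8 each way below background on 1; the 10 each way with agreeing probes; up to 4 per list (all for lists under 15); and genes within 1 Mb of Tet2 or Jak2. Other list members named in the text were chosen after their values were seen. Alternatives covered background correction (normexp, offset 50), scaling (quantile, cyclic loess, detected probes), filters, probe choice, the 2-fold threshold against 3-fold, and the series table. Python 3.11.15, R 4.3.3 and limma 3.58.1 were used. Some list members are not reported here.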

Additional observations from a re-analysis of the deposited data

How the results depend on the processing

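Counts of genes depended on the correction and offset, the threshold and the filter on dim probes. Against 2422 higher and 2197 lower genes, normexp with an offset of 50 and quantile scaling gave 1002 and 789, of which 1002 and 781 were among the first, and a 3-fold threshold gave 1170 and 1094. Restriction to probes above background on both arrays gave 1461 lower and 1623 higher genes of 11584. The other scalings, the choice of the brightest probe, the absence of a filter and the series table kept both counts within 1.5 times. With no filter the median of all genes was -0.15. Of the 37 list medians none that exceeded the spot error changed sign under any of these alternatives. Of 195 named genes, 3 at least 2-fold different changed sign: Bcor to -0.11 with no filter, Hif1a to 0.16 with probes above background on both arrays, and Rpl13a to -0.0059 with the brightest probe. The cause was not tested. Genes named for the greatest differences had to pass 2-fold in the same direction with normexp, so normexp could not reverse them. Genes named for probes of 1 sign could not be reversed by the brightest probe. The count of 3 therefore does not measure how stable those genes are. The median of the red cell list, 0.05, was -0.43 with probes above background on both arrays. No paired analysis was possible because each genotype has 1 array. Signal near background limits dim genes, and the TET2KD array has the higher floor and the smaller share of spots above background, so bounds against it are the weaker ones.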

Other observations

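Beyond named genes, 8871 probes for long intergenic RNAs were compared, and 14.9% of them were at least 2-fold higher in JAK2V617F cells and 19% lower. By chromosome, the share of genes at least 2-fold higher ran from 14.1% on chromosome 10 to 21.7% on chromosome 13 among the autosomes, and the X chromosome had 15% higher and 18.0% lower.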
